A study of Mus musculus with 3 samples.

Results

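The miR-130 and miR-301 family was followed in exosomes, small membrane vesicles that cells release, from mouse bone-marrow-derived macrophages. Its members were taken by name: mmu-miR-130a-3p, mmu-miR-130b-3p, mmu-miR-130b-5p, mmu-miR-301a-3p and mmu-miR-301b-3p, written below without the species prefix mmu, which are 5 of the 1915 mature microRNAs (miRNAs) in the tables. The study held 1 group of 3 libraries, called libraries 1, 2 and 3, all from wild type C57BL/6 animals and with no treatment or control group. Marrow cells of femurs and tibias were kept for 24 h with M-CSF, the factor that drives macrophage formation, then moved to medium with exosome-free serum, and vesicles were pelleted from that medium by ultracentrifugation after 72 h. The purpose given for the series was to profile the miRNAs of these vesicles. Whether separate animals or cultures gave the libraries is not in the labels, so SDs and p-values apply to these 3 libraries only. SDs measure how the libraries differ, which may be technical, and chi-square p-values compare them by counting error. No library of the parent cells was analysed here, and RNA that pelleted together with the vesicles is part of each value.

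A miRNA is cut from a hairpin precursor whose 2 arms, 5p and 3p, can each enter an Argonaute protein and guide it to messenger RNAs, mainly through the seed, bases 2 to 8. Usually one arm is kept and its partner is degraded. In the miR-130 and miR-301 family the 3p arms carry the seed that gives the family its targets, among them Pparg, a nuclear receptor of lipid metabolism and of alternatively activated macrophages. MiR-130a is known from endothelium and blood progenitors, and miR-130b and miR-301b are made from neighbouring hairpins.

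The mature sequences are shown first because the counts turn on which arm of which hairpin was read. Of the 5 members 4 were found in RefSeq (GRCm38.p6), and capitals mark the seed, the 3p arms first and the 5p arms after them.
miR-130a-3p: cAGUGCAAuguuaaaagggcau
miR-130b-3p: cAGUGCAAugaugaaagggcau
miR-301a-3p: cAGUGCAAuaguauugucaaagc
miR-130a-5p: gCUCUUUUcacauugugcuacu
miR-130b-5p: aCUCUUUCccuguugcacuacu
miR-301a-5p: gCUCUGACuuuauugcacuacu
miR-301b-5p: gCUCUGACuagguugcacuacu
The 3p arms shown carry one seed, whereas the 5p arms carry 3 different ones, so that miR-130b-5p and miR-130b-3p differ in the sites they can pair with. MiR-130a-3p and miR-130b-3p are identical at 20 of 22 positions and differ by U11A and A13G, with positions counted from the 5′ end and the base of miR-130a-3p given first. MiR-130b-5p matches miR-301a-5p and miR-301b-5p at 16 of 22 positions each, and miR-301a-5p and miR-301b-5p match each other at 19 of 22.

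The miR-130b and miR-301b precursors lie together on the minus strand of chromosome 16 (GRCm38, the mm10 build that the submitters' processing notes name). The miR-130b precursor spans 17124061 to 17124142 and the miR-301b precursor 17124400 to 17124496, with 257 bases between them, and both fall within an intron of the protein-coding gene 2610318N02Rik on the same strand. The miR-301a precursor occupies positions 87113004 to 87113089 of the plus strand of chromosome 11, inside an intron of Ska2, which encodes a spindle and kinetochore protein. The miR-130a precursor, on chromosome 2 at 84741115 to 84741178, minus strand, overlaps no gene of another kind in GENCODE M21. The hairpins are printed because they show where both arms of one precursor sit, and capitals mark the mature arms that RefSeq lists.
miR-130b hairpin: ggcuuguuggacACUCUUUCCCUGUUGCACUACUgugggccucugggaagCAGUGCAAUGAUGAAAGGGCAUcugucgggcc
miR-301a hairpin: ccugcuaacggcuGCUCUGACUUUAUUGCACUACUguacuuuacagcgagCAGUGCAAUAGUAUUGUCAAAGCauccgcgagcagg
In both hairpins the 5p arm ends shortly before the loop and the 3p arm follows it, so 1 precursor molecule can give 1 copy of each arm.

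The libraries held between 2489984 and 3208617 miRNA counts, and levels are given per 1000000 miRNA counts of a library (CPM). Library 1 stood apart from the others across the whole profile. Among the 134 miRNAs that averaged 100 CPM or more, the median log2 ratio was 0.62 for library 1 over library 2, 0.96 for library 1 over library 3 and 0.16 for library 2 over library 3. Of 6 miRNAs known from macrophages and other blood cells all were present in every library, none was highest in library 1, and their summed level, mostly miR-21a-5p, was 71162, 344914 and 300101 CPM in libraries 1, 2 and 3. The haematopoietic miR-142a-3p stood at 42.9, 1364 and 819 CPM in the same order. Markers of other cell types were lower in sum: erythroid ones at 89.7, 27.7 and 15.6 CPM, endothelial ones at 25.9, 44.6 and 25.2 CPM, stromal ones at 245, 139 and 134 CPM, epithelial ones at 66.5, 437 and 266 CPM, neuronal ones at 5.65, 10.8 and 14 CPM, and muscle ones at 2.66, 0 and 2.18 CPM, with the neuronal miR-124-3p at 0 counts. The hepatocyte miRNA miR-122-5p reached 322, 548 and 1500 CPM. In library 1 miR-142a-3p and miR-223-3p were each below miR-122-5p and below the erythroid, stromal and epithelial sums. The other blood-cell markers were not all below these. MiR-142a-5p, at 292 CPM in library 1, was below miR-122-5p but above those sums. MiR-155-5p, at 74.8 CPM, was above the epithelial sum only, and miR-21a-5p and miR-146a-5p were above all of them.

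The family was a minor part of the exosome profile and was carried almost wholly by the miR-130b hairpin. Its 5 members summed to 1369, 286 and 269 CPM in libraries 1, 2 and 3, a mean of 641 ± 630.2 CPM (SD, n = 3) or 0.0641% of miRNA counts, and of 277 CPM without library 1. Library 1 was the high one, and libraries 2 and 3 were close to each other. The miR-130b arms together made up 1291, 254 and 252 CPM of these sums. The blood-cell markers in sum were lowest in library 1, where the family was highest, although miR-223-3p among them was lowest in library 3. The erythroid and stromal sums were highest in library 1, as were 213 of the 353 miRNAs tested. The part of these markers in the family's levels was not tested.

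**Figure D1:**
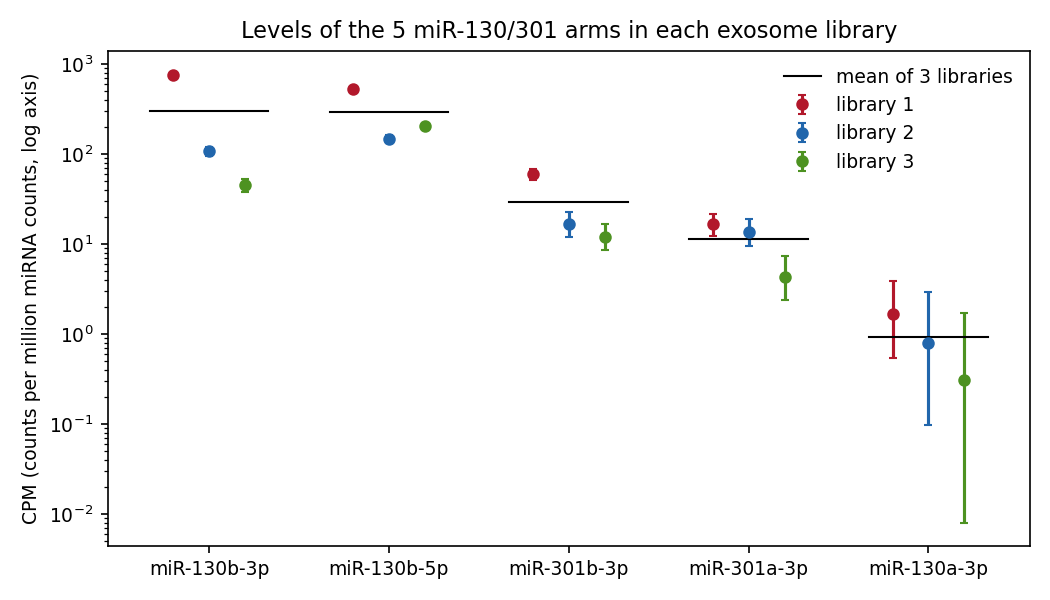
Levels of the 5 family arms (horizontal axis) in CPM on a log axis, 1 point for each of the 3 libraries with its exact 95% Poisson interval, and a line at the mean of the 3. The miR-130b arms lie above all others in every library, and library 1 gives the highest point for each arm, with overlapping intervals between libraries 1 and 2 for miR-301a-3p and among all 3 libraries for miR-130a-3p.

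MiR-130b-3p, the arm with the family seed, had 2296, 267 and 145 counts in libraries 1, 2 and 3, which is 763, 107 and 45.2 CPM. Its mean was 305 ± 398 CPM (SD, n = 3), which placed it 98th of all miRNAs by mean level, and its mean without library 1 was 76.2 CPM. The SD exceeded the mean, and the level in library 1 was far above both others. By order within a library, which does not depend on scaling, it went from place 77 in library 1 to places 125 and 145 in libraries 2 and 3.

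MiR-130b-5p, the opposite arm of the same hairpin, had 1588, 366 and 663 counts, or 528, 147 and 207 CPM. Its mean of 294 ± 205 CPM (SD, n = 3) put it at place 100, close behind miR-130b-3p, and its mean without library 1 was 177 CPM. Library 1 was again the highest, but library 3 stood above library 2, the opposite order to that of miR-130b-3p. It held places 85, 109 and 97 in the 3 libraries.

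MiR-301b-3p, from the hairpin beside miR-130b, had 179, 42 and 39 counts, or 59.5, 16.9 and 12.2 CPM, with a mean of 29.5 ± 26.1 CPM (SD, n = 3) and of 14.5 CPM without library 1. The intervals of libraries 2 and 3, 12.2 to 22.8 and 8.64 to 16.6 CPM, overlapped, and both lay below that of library 1, 51.1 to 68.9 CPM. MiR-301a-3p, whose hairpin lies in Ska2, had 50, 34 and 14 counts, or 16.6, 13.7 and 4.36 CPM, with a mean of 11.5 ± 6.39 CPM (SD, n = 3). Here libraries 1 and 2 overlapped, at 12.3 to 21.9 and 9.46 to 19.1 CPM, and library 3 was lower, at 2.39 to 7.32 CPM.

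MiR-130a-3p was near the limit of detection, with 5, 2 and 1 counts, or 1.66, 0.803 and 0.312 CPM. Its intervals overlapped across all 3 libraries. The sources do not say how reads with mismatches were assigned, and whether these 8 counts include misread copies of miR-130b-3p, of which the libraries held 2708, was not tested. The 5p arm of miR-130a had no count in any library, which allows up to 0.997, 1.2 and 0.935 CPM (3 counts) in libraries 1, 2 and 3. The 3p arm was above that floor in library 1 and below it in libraries 2 and 3. The endothelial miR-126a-3p was read at 21.6, 43.8 and 23.7 CPM in the same libraries. Its opposite arm, miR-126a-5p, had 13, 2 and 5 counts, or 4.32, 0.803 and 1.56 CPM, and was highest in library 1.

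Within the family the order of levels followed the hairpins. MiR-130b-5p exceeded miR-301b-3p 8.87-, 8.71- and 17-fold in libraries 1, 2 and 3, a mean log2 ratio of 3.44 ± 0.54 (SD, n = 3). MiR-301b-3p exceeded miR-301a-3p in all 3 libraries as well, 3.58-, 1.24- and 2.79-fold, at a mean log2 ratio of 1.19 ± 0.80. MiR-301a-3p had more counts than miR-130a-3p in each library, 50, 34 and 14 against 5, 2 and 1, counts too low for a fold. The exception was the upper pair: miR-130b-3p was above miR-130b-5p 1.45-fold in library 1 and below it in libraries 2 and 3, at 0.730 and 0.219 of its level. Its mean log2 ratio of -0.70 ± 1.38 (SD, n = 3) was smaller than its spread, so these neighbours did not differ beyond the spread between libraries. An exact two-sided sign-flip permutation test over 3 libraries cannot go below p = 0.25, and this was its value for each of the other neighbours (Benjamini-Hochberg adjusted 0.312 over the 10 ratios examined, 1 of which is another inverted). For the upper pair the same exact permutation test gave p = 0.75.

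The miR-130b hairpin changed its leading arm between libraries. The 5p arm took 40.9% of the hairpin's counts in library 1 (95% Wilson interval 39.3 to 42.4), 57.8% in library 2 (53.9 to 61.6) and 82.1% in library 3 (79.3 to 84.5). The intervals, which cover counting error only, did not overlap, and the 50% mark lay between library 1 and the others. As a ratio of 5p to 3p counts this was 0.692, 1.37 and 4.57, which is independent of how libraries are scaled. From library 1 to library 3 miR-130b-3p was lower by 4.07 on the log2 scale and miR-130b-5p by 1.35, and from library 2 to library 3 the 3p arm was lower by 1.24 while the 5p arm was higher. A chi-square test of the 5p and 3p counts over the 3 libraries gave an adjusted p of 8.44e-103 for miR-130b, in a comparison where 59.2% of 157 hairpins were called. Without library 1 the adjusted p was 8.32e-23, with 46 of 142 hairpins called. This test compares these libraries by counting error and says nothing of conditions.

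**Figure D2:**
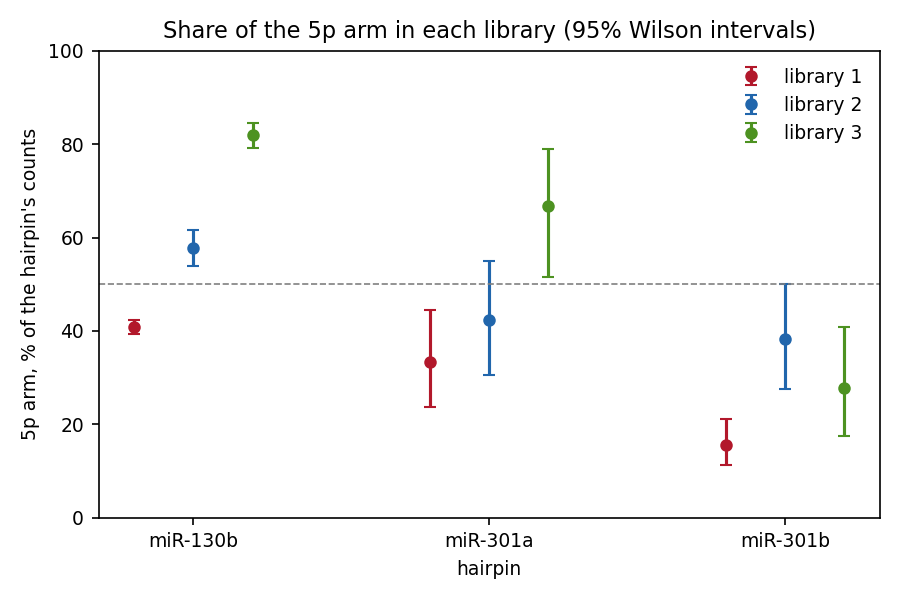
Share of the 5p arm among the counts of each hairpin (vertical axis, percent) for miR-130b, miR-301a and miR-301b in libraries 1, 2 and 3, with 95% Wilson intervals that cover counting error only, and a dashed line at 50%. The miR-130b points at 40.9%, 57.8% and 82.1% do not overlap and fall on either side of the line.

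The partner hairpins gave fewer counts and wider intervals. For miR-301a, with 25, 25 and 28 counts of the 5p arm, that arm took 33.3% (23.7 to 44.6), 42.4% (30.6 to 55.1) and 66.7% (51.6 to 79.0) in libraries 1, 2 and 3, so the leading arm changed there too and library 3 again had the highest 5p share. The chi-square test gave an adjusted p of 0.00438 for miR-301a, and 0.415 without library 3. For miR-301b, with 33, 26 and 15 counts of the 5p arm, the share was 15.6% (11.3 to 21.1), 38.2% (27.6 to 50.1) and 27.8% (17.6 to 40.9), with the 3p arm leading in each library. Its adjusted p was 5.88e-04, but 0.399 without library 1 and 0.0669 without library 2. Thus 3 of 3 tested family hairpins were called against a background of 59.2%, and 1 of them, miR-130b, was called whichever library was left out. Those runs called 46 of 142 hairpins without library 1, 80 of 151 without library 2 and 72 of 151 without library 3. MiR-130b also had the most counts to test, 5325 in sum against 176 for miR-301a and 334 for miR-301b.

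The arm that led on average could not be told for these hairpins. An edgeR quasi-likelihood test of 5p against 3p, with library as a term, called 80.3% of 157 hairpins and none of the 3 tested in the family. For miR-130b its log2 ratio of 5p over 3p was 0.68 (SE 0.93, adjusted p = 0.496), for miR-301a -0.17 (SE 1.07, adjusted p = 0.89) and for miR-301b -1.5 (SE 1.02, adjusted p = 0.165). Each SE here was worked out as the size of the log2 ratio divided by the square root of the test's F statistic. At an unadjusted p of 0.05 the test, DESeq2 and limma likewise called none of the 3. Leaving out library 1, the one in which its 3p arm led, brought miR-130b to 1.32 (SE 0.59, edgeR adjusted p = 0.0326) in favour of the 5p arm. That run called 122 of 142 hairpins, so a call there was the usual outcome.

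Set against all tested hairpins, the movement of miR-130b was wide but not alone. The gap between its highest and lowest 5p share was 41.2 percentage points, compared with a median of 2.30 over 157 hairpins, and 10 hairpins had a wider gap. For miR-301a the gap was 33.3 points with 18 wider, and for miR-301b 22.7 points with 33 wider. MiR-130b and miR-301a were among 18 hairpins (11.5%) in which the arm with more counts was not the same in every library. From library 1 to library 2, the step at which its leading arm changed, the log2 ratio of 5p over 3p in miR-130b moved by 0.99, close to the median of 0.91 over all hairpins, with 75 above it and 98 of 157 moving towards the 5p arm. A move towards the 5p arm from library 1 to library 3 was seen in 91 of 157 hairpins, with a median log2 change of 0.66, and the change of miR-130b was 2.72, with 30 hairpins above it. From library 2 to library 3 the median was -0.13 and the change of miR-130b 1.73, with 19 hairpins above it.

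**Figure D3:**
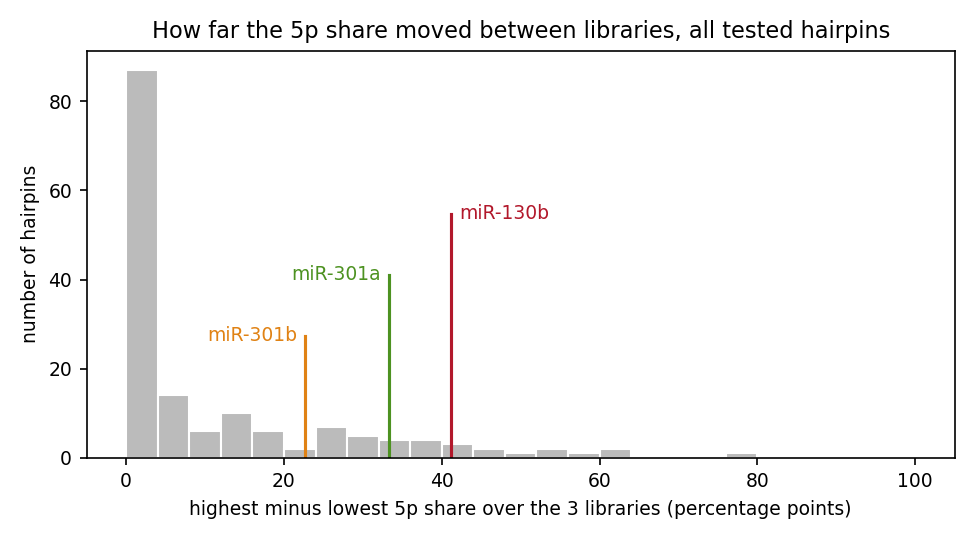
Number of hairpins (vertical axis) by the gap between the highest and lowest 5p share over the 3 libraries, in percentage points, for 157 hairpins with a summed count of at least 60. Coloured lines mark miR-130b at 41.2, miR-301a at 33.3 and miR-301b at 22.7, all to the right of the main mass near 0.

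How far each member differed between libraries was then set against the rest of the profile. MiR-130b-3p was 7.10-fold higher in library 1 than in library 2 and 16.8-fold higher than in library 3, and of the 134 miRNAs averaging 100 CPM or more, 10 and 5 had a larger ratio. MiR-130b-5p was 3.59- and 2.55-fold higher, with 27 and 51 miRNAs above it. A level more than 2-fold higher in library 1 was seen for 35.8% of the 134 miRNAs against library 2 and for 47.8% against library 3, and for both miR-130b arms against both, although with TMM factors miR-130b-5p was 1.40-fold higher than in library 3. A level more than 2-fold lower in library 1 was seen for 20.1% and 21.6%, and for no member. Between libraries 2 and 3, 19.4% were more than 2-fold higher in library 2, miR-130b-3p among them at 2.37-fold (1.99-fold with TMM factors and 1.84-fold with the authors' RPM), and 7.46% more than 2-fold lower, with no miR-130b arm among them. MiR-301b-3p was 3.50- and 4.85-fold higher in library 1, and miR-301a-3p 1.21- and 3.71-fold. Between libraries 2 and 3 miR-301a-3p, on 34 and 14 counts, was 3.07-fold higher in library 2, and 2 of the 134 miRNAs had a larger ratio.

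Since the ratios of all miRNAs were not centred on 0, part of these gaps moved with the scaling. TMM factors changed every log2 ratio between libraries 1 and 2 by -0.61, between libraries 1 and 3 by -0.86, and by -0.25 for libraries 2 and 3. Relative to the median of the 134 miRNAs, miR-130b-3p was higher in library 1 by 2.21 than in library 2 and by 3.11 than in library 3 on the log2 scale. MiR-130b-5p was higher by 1.22 and 0.39, miR-301b-3p by 1.19 and 1.32, and miR-301a-3p by -0.34 and 0.93. The direction of miR-301a-3p between libraries 1 and 2 thus turned with the scaling, from 0.28 with library totals to -0.34 with TMM factors and -0.38 with DESeq2 size factors, all within its counting error. MiR-130b-5p was lower in library 2 than in library 3 with library totals, TMM factors and DESeq2 size factors, at log2 ratios of -0.49, -0.74 and -0.72, while miR-130b-3p was higher, at 1.24, 1.00 and 1.02.

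**Figure D4:**
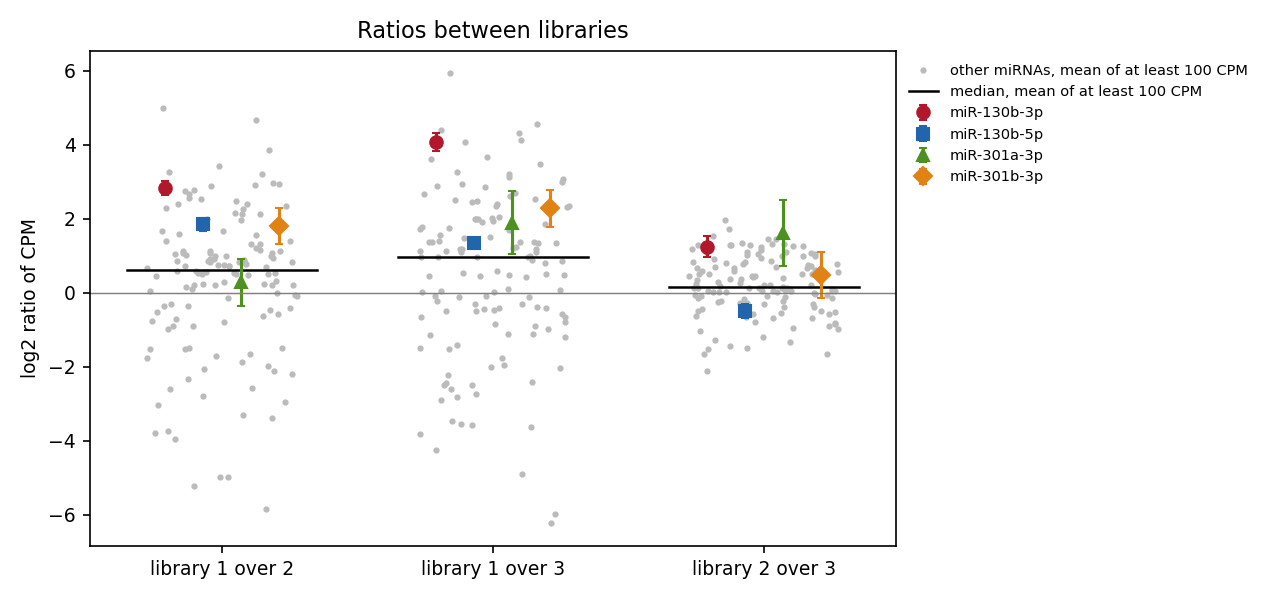
Log2 ratio of CPM between 2 libraries (vertical axis) for the 3 pairs of libraries. Coloured points are 4 family arms with 95% counting intervals, grey points the other miRNAs averaging 100 CPM or more, and the black line the median of all 134 such miRNAs. MiR-130b-3p sits at 2.83, 4.07 and 1.24, above the medians of 0.62, 0.96 and 0.16, and miR-130b-5p falls below the median in the third pair, at -0.49.

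A chi-square test of each count against the library totals called 4 of the 4 members it could test, where 90.1% of 353 miRNAs were called, so the count is near the background. Without library 1 the test called 177 of 288 miRNAs. The adjusted p was 1.79e-05 for miR-301a-3p, 6.25e-30 for miR-301b-3p and 2.71e-175 for miR-130b-5p, and for miR-130b-3p it was smaller than double precision can hold. Without library 1 miR-301b-3p no longer passed (adjusted p = 0.191), and without library 3 miR-301a-3p did not (adjusted p = 0.403). Of the arms outside the member list, miR-301a-5p was steady at 8.31, 10.0 and 8.73 CPM and did not pass (adjusted p = 0.789), although with TMM factors it was lower in library 1 than in both others, by log2 ratios of -0.89 and -0.93. MiR-301b-5p was at 11.0, 10.4 and 4.67 CPM (adjusted p = 0.0144).

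The neighbouring miR-130b and miR-301b hairpins were not read in a fixed ratio. MiR-130b-3p exceeded miR-301b-3p 12.8-, 6.36- and 3.72-fold in libraries 1, 2 and 3, and miR-130b-5p exceeded miR-301b-5p 48.1-, 14.1- and 44.2-fold. The 3p pair was widest apart in library 1 and closest in library 3, while the 5p pair was closest in library 2. Read counts of different miRNAs are not numbers of molecules, so these are ratios of counts.

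Most counts with the family seed came from miR-130b-3p. Of the 1623 miRNAs in the tables with a RefSeq sequence, 7 (0.431%) had AGUGCAA as bases 2 to 8, and 4 of these, miR-130c, miR-721, miR-6341 and miR-6389, had no count in any library. The other 3 are members, and with miR-301b-3p the 3p arms of the family summed to 841, 139 and 62.0 CPM in libraries 1, 2 and 3, of which miR-130b-3p was 763, 107 and 45.2 CPM and miR-301b-3p 59.5, 16.9 and 12.2 CPM. MiR-7014-3p, which shares the seed CUCUUUC of miR-130b-5p, had no count either.

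MiRNAs with a seed shifted against that of the family were read more often than the family seed itself in each library. The miR-19 sequences are shown because 6 bases of the family seed, GUGCAA, recur in them at the start of their own seed (capitals).
miR-19a-3p: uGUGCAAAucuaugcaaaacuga
miR-19b-3p: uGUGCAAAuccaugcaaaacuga
No other miRNA in the tables with a RefSeq sequence held GUGCAA within its first 10 bases outside the 7 with the family seed. MiR-19a-3p and miR-19b-3p, members of the proliferative miR-17-92 cluster, summed to 1146, 2870 and 1366 CPM, lowest in library 1, where the family was highest. The same miR-19b-3p sequence lies on chromosome 14 and on chromosome X, so its counts cannot be assigned to that cluster alone. MiR-19a-3p alone, at 307, 479 and 204 CPM, was lowest in library 3. Other miRNAs of the cluster did not share the order of the miR-19 sum. MiR-17-5p, miR-20a-5p and miR-92a-3p were highest in library 1, and miR-18a-5p stood at 111, 109 and 52.4 CPM. In library 1 the miR-19 sum was below the sum of the 5 members, and in libraries 2 and 3 above it. The miR-148 and miR-152 family was above the miR-130 and miR-301 family in each library, at 8164, 4610 and 6086 CPM for its 3p arms in sum. Its most abundant member, miR-148b-3p, exceeded miR-130b-3p 7.88-, 29.8- and 68.6-fold in libraries 1, 2 and 3. MiR-152-3p, at 925, 402 and 166 CPM, had its libraries in the same order as miR-130b-3p, and miR-148a-3p, at 1225, 1008 and 2820 CPM, did not. Of the 5 miR-19, miR-148 and miR-152 arms 2 were highest in library 1 with library totals. So were 5 of 5 members of the miR-130 and miR-301 family and 213 of 353 among all miRNAs tested. MiR-130a-3p, on 5, 2 and 1 counts, was too low to be among those 353. MiR-301a-3p turned with TMM and DESeq2 factors, and the 213 was not counted again with them.

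The miRNAs whose levels moved most like each member were found by the root mean square difference of log2 CPM, centred over the 3 libraries, among 132 miRNAs averaging 100 CPM or more. With 3 libraries this describes which library was high and little more. Nearest to miR-130b-3p were miR-378c (difference 0.026; 3662, 537 and 219 CPM), miR-1198-5p (0.059; 2820, 359 and 162 CPM) and miR-378b (0.17). Nearest to miR-130b-5p were miR-128-3p (0.088; 3723, 929 and 1264 CPM), miR-532-5p (0.14) and miR-501-3p (0.21). Nearest to miR-301b-3p were miR-24-3p (0.059), miR-30d-5p (0.11) and miR-361-5p (0.12), and to miR-301a-3p miR-106b-5p (0.11), miR-542-3p (0.14) and miR-191-5p (0.20). The 2 arms of miR-130b shared no name among their nearest 3. By mean level the neighbours of miR-130b-3p were miR-19a-3p and miR-30e-3p above it, the latter at 323 ± 218 CPM, and miR-1843b-5p at 299 ± 66.1 CPM and miR-130b-5p below it (SD, n = 3 each). All of these differ from miR-130b-3p by less than its SD.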

How the data were processed

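Small RNA libraries of macrophage exosomes (3 libraries, 1 group) were made with 3′ and 5′ adapter ligation, PCR and gel selection and read as single-end 50-base reads, per the labels' protocols, which mention no molecular identifiers. Bcl2fastq, BWA and mm10 are named in the submitters' processing notes. How reads were trimmed, matched with mismatches, annotated and shared among several loci is not stated there or in the labels. Each deposited table gives a raw count for every mature miRNA and the authors' normalized value, RPM, whose denominator, worked out from the deposited columns, was 14047692, 13995845 and 14002577 in libraries 1 to 3, of which miRNA counts were 21.4%, 17.8% and 22.9%.

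Levels are counts divided by the library's miRNA sum (CPM). Log2 ratios, and folds between libraries, added 0.5 to each count; ratios between arms within a library are of the counts themselves. Chi-square tests (minimum summed count 30 for miRNAs and 60 for hairpins) and edgeR 4.0.16 quasi-likelihood tests of arms with library as a term were fitted on all miRNAs or hairpins, with Benjamini-Hochberg adjustment over all of them and a threshold of 0.05. Arms were matched by name (749 hairpins, 157 tested). Scripts were tested on simulated data. Intervals and floors (3 counts) cover counting error only. Alternatives were TMM factors, DESeq2 1.42.0, limma 3.58.1, the RPM, other count minimums and leaving out each library. Named miRNAs are the members, the other arms of their hairpins, seed sharers, fixed lists of shifted seeds and cell markers, the 3 nearest in pattern and the neighbours in level. A further list is not reported here. Members and lists were chosen with earlier results of these data known. Sequences are from RefSeq (GRCm38.p6) and host genes from GENCODE M21.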

Additional observations from a re-analysis of the deposited data

How the results depend on the processing

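No paired analysis between groups was possible because there was 1 group; the arm test has library as a term, and with no replicate block (no library term) the log2 ratio of the miR-130b arms went from 0.68 to -0.055 (edgeR adjusted p = 0.954). Leaving out 1 library moved it between -0.040 (without library 3) and 1.32 (without library 1), and that of miR-301a between -0.72 and 0.24 (without library 1). The family's log2 ratio of library 1 over library 2 went from 2.26 to 1.65 with TMM factors, 1.61 with DESeq2 size factors and 2.53 with the authors' RPM, that of library 1 over library 3 from 2.35 to 1.49 and 1.47 with the first pair of these, and that of library 2 over library 3 from 0.09 to -0.16, -0.14 and -0.28. Its direction thus turned, and the counting intervals with TMM factors (-0.30 to -0.017) and with the RPM (-0.42 to -0.13) lay below 0. MiRNAs called by the chi-square test over libraries numbered 318 of 353, and 177 of 288 (without library 1) to 284 of 327 (without library 2) with 1 library left out. Hairpins called for their arm share numbered 93 of 157, and 46 of 142 (without library 1) to 80 of 151 (without library 2). The family mean was 641 CPM, between 277 and 827 CPM with 1 library left out, 544 CPM with TMM factors, 541 CPM with DESeq2 size factors and 135 RPM. Hairpins called by the arm test numbered 126 of 157, and from 99 of 151 (without library 2) to 188 of 262 (summed count of at least 10) under the alternatives. With every hairpin that had a count they numbered 168 of 473. With 15 to 33 counts of the 5p arm a library, the 5p shares of miR-301a and miR-301b carried wide intervals, and for miR-130a depth allowed no comparison.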
